A study of Mus musculus with 6 samples.

Results

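The cation-chloride cotransporters described here were *Slc12a2*, *Slc12a4*, *Slc12a5*, *Slc12a7* and *Slc12a9*, chosen by gene symbol, which are 5 of the 35523 genes to which the transcripts were assigned. They were measured by RNA-Seq of the whole forebrain at P20 (postnatal day 20) in 3 *Slc13a4*+/- mice (Nas2Del_Het_1024, Nas2Del_Het_1025 and Nas2Del_Het_1027) and 3 wild-type mice (Nas2Del_WT_1016, Nas2Del_WT_1018 and Nas2Del_WT_1026), all on the C57BL/6 strain. The *Slc13a4*+/- mice, labelled Nas2Del +/- Het, carried 1 deleted allele of *Slc13a4*, a sodium-coupled sulfate transporter, and came from heterozygous males and wild-type females. The controls were described as wild-type littermates. The extent of the deletion in the gene is not described in the methods, and no source used here gives the sex or litter of a mouse. The question was whether these transporters, and above all the balance of *Slc12a5* to *Slc12a2*, differed between the genotypes.

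Estimated counts summed to between 60340337 and 80410582 per mouse. *Slc13a4* itself was measured at 5.60, 6.57 and 5.42 CPM (counts relative to the library total, after TMM scaling) in the *Slc13a4*+/- mice and at 10.4, 9.36 and 8.23 in the wild-type mice, which did not overlap. The estimated log2 fold change was -0.67 (SE 0.11), and the adjusted p was 0.499 in edgeR (quasi-likelihood test) and 0.0024 in DESeq2 (Wald test). Wild-type Nas2Del_WT_1026 stood apart from the other wild-type mice, with a chi-square per gene of 34.1 to 40.4, where all pairs of mice lay between 6.61 and 40.4. Against the *Slc13a4*+/- mice it had 15.2 to 22.2, and Nas2Del_WT_1016 had 17.6 to 22.7. Wild-type Nas2Del_WT_1016 had 105 CPM of the Y-linked gene *Ddx3y*, and no other mouse had more than 0.033. Neuronal markers summed to 5811 to 6128 CPM over all mice and forebrain markers to 183 to 215. The 6 hindbrain and spinal cord markers summed to 0.987 to 1.83 CPM. In whole tissue, fewer cells of a type and less RNA per cell cannot be told apart. The samples were labelled as separate mice, and the p-values measure the spread between these mice.

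Cation-chloride cotransporters move chloride together with sodium or potassium and so set the chloride gradient across the membrane. NKCC1, the product of *Slc12a2*, brings sodium, potassium and chloride into the cell, and KCC2, the product of *Slc12a5*, takes potassium and chloride out of neurons. During postnatal maturation of the rodent forebrain KCC2 rises, neuronal chloride falls and the response to GABA turns from depolarizing to hyperpolarizing. *Slc12a4* and *Slc12a7* encode the potassium-chloride cotransporters KCC1 and KCC4, which many tissues use in volume regulation. *Slc12a9* encodes a more distant relative whose transported ions are less well defined.

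In GRCm38, *Slc12a5* (ENSMUSG00000017740) lies on the plus strand of chromosome 2 from 164960802 to 164999731. The gene *Slc12a2* (ENSMUSG00000024597) occupies 57878678 to 57946821 on the plus strand of chromosome 18. *Slc12a4* (ENSMUSG00000017765) is on the minus strand of chromosome 8 from 105943590 to 105966097. *Slc12a7* (ENSMUSG00000017756) is on the plus strand of chromosome 13 from 73733094 to 73816754, and *Slc12a9* (ENSMUSG00000037344) is on the minus strand of chromosome 5 from 137314558 to 137333597. *Slc12a4* overlaps the antisense gene *Gm16156* on the opposite strand and *Mir7074* on its own strand. The libraries were stranded, but no source used here gives the strand setting of the quantification. Together the 5 genes have 32 transcripts among those quantified.

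For none of the 5 cotransporter genes was a difference between *Slc13a4*+/- and wild-type forebrain detected by edgeR or DESeq2. *Slc12a5* was by far the most abundant, *Slc12a2* came next, *Slc12a4* and *Slc12a9* were close to each other, and *Slc12a7* was low. The order was the same in all 6 mice, and the CPM values of the genotypes overlapped for every gene. The 95% intervals ran no wider than folds of 0.897 to 1.102 for the 4 more abundant genes and reached 0.851 to 1.201 for *Slc12a7*.

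*Slc12a5* was measured at 219, 235 and 228 TPM (a level scaled by transcript length and by the library) in the *Slc13a4*+/- mice and at 216, 214 and 235 TPM in the wild-type mice. Wild-type Nas2Del_WT_1026 and Nas2Del_Het_1025 were highest and nearly equal. *Slc12a2* was at 53.8, 56.0 and 50.7 TPM in the *Slc13a4*+/- mice and at 54.1, 55.3 and 54.1 TPM in the wild-type mice. Both the highest and the lowest *Slc12a2* level came from *Slc13a4*+/- mice. *Slc12a4* ranged from 15.6 to 17.7 TPM over the 6 mice, with both ends in wild-type mice, and *Slc12a7* from 1.46 to 2.50 TPM. *Slc12a9* was at 15.4, 15.9 and 15.4 TPM in the *Slc13a4*+/- mice and 13.8, 14.2 and 15.3 in the wild-type mice. These *Slc12a9* levels did not overlap, whereas its CPM did. Over all mice the mean levels were 224.6 ± 9.4 TPM (SD, n = 6) for *Slc12a5*, 54.0 ± 1.8 for *Slc12a2*, 16.7 ± 0.69 for *Slc12a4*, 15.01 ± 0.82 for *Slc12a9* and 1.89 ± 0.43 for *Slc12a7*. *Slc12a4* and *Slc12a9* were the only neighbours in this order whose ranges overlapped, although *Slc12a4* was higher in 6 of 6 mice, by a ratio of 1.04 to 1.23.

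**Figure D1:**
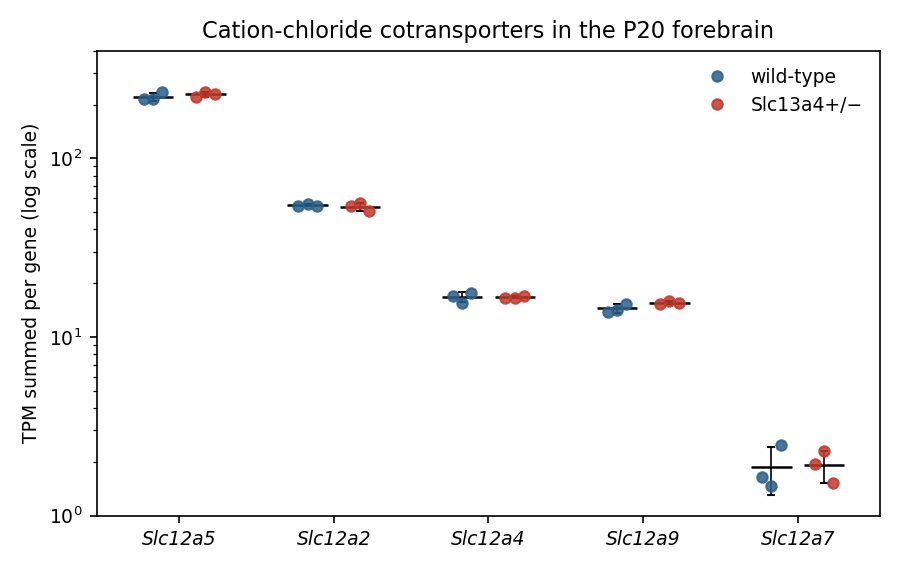
TPM summed per gene (y axis, log scale) for the 5 cation-chloride cotransporters (x axis) in each mouse. Each point is a mouse, the horizontal bar its group's mean and the error bar the SD of 3 mice; *Slc12a5* lies between 214 and 235 TPM in all mice and *Slc12a7* between 1.46 and 2.50.

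Of the other genes of the SLC12 family, *Slc12a1* and *Slc12a3*, the transporters of the kidney tubule, reached at most 0.130 and 0.199 TPM, below every value of the 5 genes.

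In CPM, the scale of the test, *Slc12a5* was at 533, 561 and 550 in the *Slc13a4*+/- mice and at 545, 520 and 591 in the wild-type mice, so the lowest and the highest value were both wild-type. The log2 fold change was -0.01 (SE 0.05, 95% interval -0.13 to 0.11) and the adjusted p in edgeR was 0.966. *Slc12a2* was at 165, 170 and 153 CPM in the *Slc13a4*+/- mice and at 168, 171 and 166 CPM in the wild-type mice. Nas2Del_Het_1027 was the lowest, and the other *Slc13a4*+/- mice lay within or just under the wild-type values. The log2 fold change of *Slc12a2* was -0.05 (SE 0.05, 95% interval -0.16 to 0.05) and the adjusted p in edgeR was 0.758. The interval corresponds to folds of 0.897 to 1.04.

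*Slc12a4* was at 25.1 to 26.1 CPM in *Slc13a4*+/- and 25.5 to 27.0 CPM in wild-type mice, with a log2 fold change of -0.04 (SE 0.04). For *Slc12a9* the *Slc13a4*+/- values were 22.4, 22.5 and 22.4 CPM and the wild-type values 20.9, 21.7 and 22.8 CPM. The *Slc13a4*+/- mice were close together and inside the wild-type range, and the log2 fold change was 0.04 (SE 0.04). *Slc12a7* was at 3.25 to 4.09 CPM in *Slc13a4*+/- and 3.36 to 3.801 CPM in wild-type mice. Its log2 fold change of 0.02 (SE 0.11) had the widest interval, from -0.23 to 0.26.

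Of the 5 genes, edgeR called 0 at an adjusted p under 0.1, against 0.00585% of the 17096 genes tested. At an unadjusted p under 0.05 the count was also 0 of 5, against 9.15% of all genes, and DESeq2 called 0 of 5, against 0.502% of 17518 genes. The adjusted p of the 5 genes was 0.758 to 0.978 in edgeR and 0.964 to 0.999 in DESeq2. In 0 of the 5 genes did the *Slc13a4*+/- CPM all lie above the wild-type CPM (7.26% of all genes) or all below it (7.7%). The median log2 fold change was -0.01 over the 5 genes and -0.0045 over all genes tested.

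**Figure D2:**
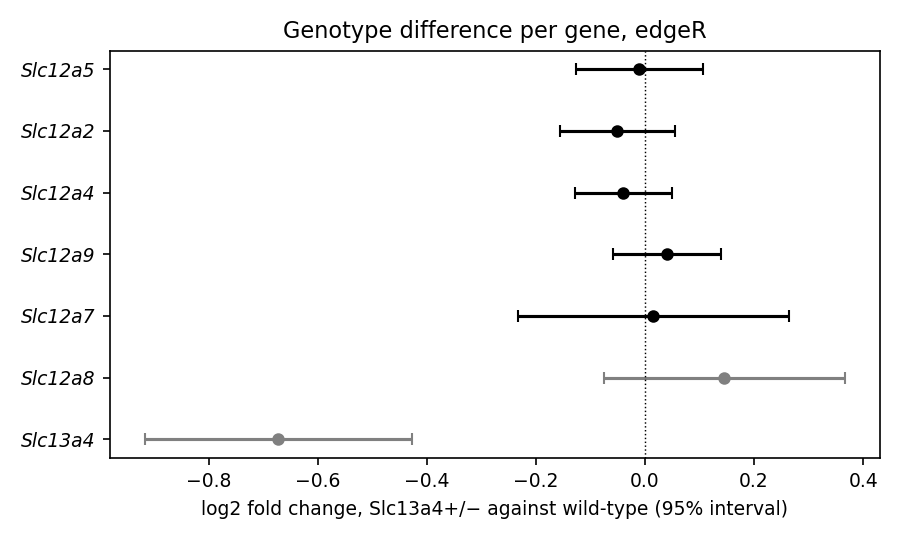
Log2 fold change of *Slc13a4*+/- against wild-type mice (x axis) in edgeR with its 95% interval, for the 5 cotransporter genes (black) and for *Slc12a8* and *Slc13a4* (grey). The intervals of the 5 genes include 0, and the estimate for *Slc13a4* is -0.67.

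*Slc12a1*, *Slc12a3* and *Slc12a8* were tested as well, and edgeR called 0 of these 3, with 0 at an unadjusted p under 0.05 and 0 called by DESeq2. *Slc12a8*, an atypical member whose role as a transporter is less settled, was at 3.59 to 4.25 CPM in *Slc13a4*+/- and 3.38 to 3.49 CPM in wild-type mice. These CPM values did not overlap, whereas its TPM did (6.09 to 8.51 against 5.401 to 7.01). edgeR put the difference at 0.15 on the log2 scale (SE 0.10, adjusted p 0.663), and without Nas2Del_Het_1025 it was 0.0624 in edgeR and 0.0058 in DESeq2. *Slc12a1* (-0.47, SE 0.39) and *Slc12a3* (-0.11, SE 0.34) were too low to place their log2 fold changes closely.

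The ratio of *Slc12a5* to *Slc12a2*, which rises as the forebrain matures, was 4.08, 4.19 and 4.51 in the *Slc13a4*+/- mice and 3.99, 3.87 and 4.34 in the wild-type mice, from TPM. The values overlapped only through Nas2Del_WT_1026, with Nas2Del_Het_1027 highest and Nas2Del_WT_1018 lowest. The mean log2 ratio was 2.09 ± 0.07 (SD, n = 3) in *Slc13a4*+/- and 2.02 ± 0.09 (SD, n = 3) in wild-type mice. The difference was 0.07 (SE 0.07, 95% interval -0.11 to 0.25 from the pooled SD), with p = 0.4 in a two-sided exact permutation test, in which 3 mice against 3 cannot go below 0.1. A ratio of estimated counts gave a log2 difference of 0.04 (exact permutation p = 0.6). In that ratio Nas2Del_WT_1016 (3.246) also lay above Nas2Del_Het_1024 (3.235). With protein-coding transcripts only the difference was 0.05 (exact permutation p = 0.5), and with the single most abundant transcript of each gene it was 0.04 (exact permutation p = 0.9). Without Nas2Del_WT_1026 the log2 difference was 0.12, and without Nas2Del_Het_1027 it was 0.03.

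**Figure D3:**
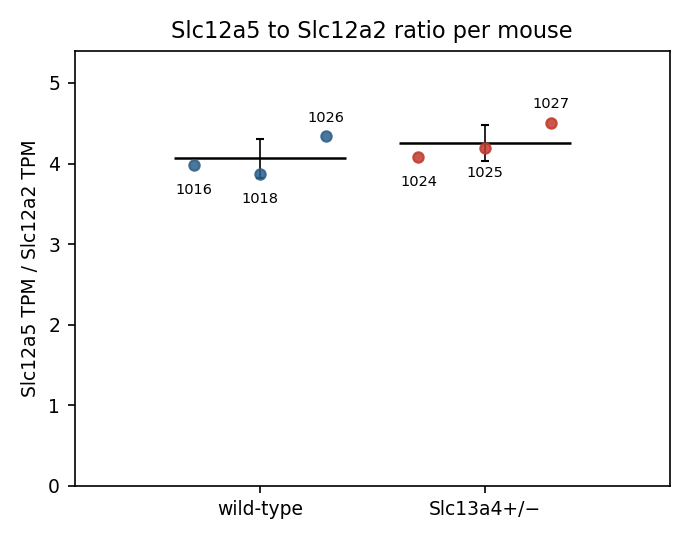
Ratio of *Slc12a5* TPM to *Slc12a2* TPM (y axis) in each mouse by genotype (x axis). Each point carries the number that ends the mouse's name, with the group's mean as a bar and the SD of 3 mice as the error bar; the *Slc13a4*+/- values run from 4.08 to 4.51 and the wild-type values from 3.87 to 4.34.

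*Slc12a5* is transcribed from alternative first exons that give KCC2 different N termini. Exon 1a begins the KCC2a form, which in the rodent is mainly known from the brainstem, spinal cord and neonatal brain, and exon 1b begins KCC2b, the main form of the mature cortex. The coding part of exon 1a is shown because it sets apart the transcripts summed below, with the start codon in capitals. It was read from the GENCODE M21 transcripts (GRCm38, plus strand).
exon 1a, chr2:164960883-164961003: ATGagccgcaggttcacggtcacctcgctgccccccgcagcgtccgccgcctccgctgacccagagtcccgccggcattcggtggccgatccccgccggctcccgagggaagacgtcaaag

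The exon 1a transcripts (Slc12a5-207 and Slc12a5-209) summed to 30.3, 37.4 and 32.1 TPM in the *Slc13a4*+/- mice and 29.7, 35.4 and 35.3 TPM in the wild-type mice. They made up 13.8% to 16.5% of the TPM of the gene. The exon 1b transcripts (Slc12a5-201 and Slc12a5-208) summed to 185, 189 and 190 TPM in the *Slc13a4*+/- mice and 182, 175 and 196 TPM in the wild-type mice, or 80.3% to 84.3% of the gene. Exon 1b thus carried most of the *Slc12a5* RNA in each mouse, and the genotypes overlapped in both forms. The log2 ratio of exon 1a to exon 1b differed by -0.04 between the genotypes, with p = 0.8 in the exact permutation test. Slc12a5-208 is a model of 7 exons, and Salmon divides reads in shared exons between transcripts by a model, so the split is an estimate.

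Slc12a5-201 held 84.7% to 88.1% of the counts of the gene, and its log2 fold change was -0.05 (SE 0.07). Slc12a5-209 was at 40.1, 42.3 and 37.2 CPM in the *Slc13a4*+/- mice and 40.2, 46.5 and 45.2 CPM in the wild-type mice, with a log2 fold change of -0.14 (SE 0.07, adjusted p 0.677 in edgeR). For Slc12a5-207 the log2 fold change was 0.17 (SE 0.22), and the highest value, 27.8 CPM, was that of Nas2Del_Het_1025. It lacks an exon of 15 bases that the other long transcripts carry, at chr2:164996864-164996878. The junction is shown with 18 bases on either side and the short exon in capitals, since it is the difference by which reads can be given to Slc12a5-207 within the shared part of the gene.
Slc12a5-201: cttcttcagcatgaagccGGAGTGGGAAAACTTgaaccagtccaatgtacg
Slc12a5-207: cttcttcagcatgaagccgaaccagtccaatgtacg

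The transcript without the short exon took 3.002%, 5.09% and 4.30% of the *Slc12a5* counts in the *Slc13a4*+/- mice and 2.99%, 3.97% and 3.74% in the wild-type mice. The shares overlapped, with p = 0.4 in the exact permutation test.

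The promoter windows of the first exons are shown because USF1 and USF2, which bind E-boxes, and EGR4 are known to act on *Slc12a5*. The windows run from 250 bases before to 50 after each RefSeq start (GRCm38.p6, plus strand), and the E-box CACGTG, which reads the same on both strands, is in capitals.
window of exon 1a, chr2:164960596-164960895: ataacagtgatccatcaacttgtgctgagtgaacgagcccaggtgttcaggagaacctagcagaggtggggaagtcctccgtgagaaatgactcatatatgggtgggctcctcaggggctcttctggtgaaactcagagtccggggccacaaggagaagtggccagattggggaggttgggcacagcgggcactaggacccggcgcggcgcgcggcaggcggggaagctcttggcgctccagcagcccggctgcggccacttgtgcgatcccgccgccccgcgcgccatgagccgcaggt
window of exon 1b, chr2:164967738-164968037: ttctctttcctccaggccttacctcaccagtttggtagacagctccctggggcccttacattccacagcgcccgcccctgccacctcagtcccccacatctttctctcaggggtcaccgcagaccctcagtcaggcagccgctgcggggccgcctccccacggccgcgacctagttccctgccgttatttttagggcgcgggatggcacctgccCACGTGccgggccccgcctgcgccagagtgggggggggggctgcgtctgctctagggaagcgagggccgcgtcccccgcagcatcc

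The window of exon 1b held 1 E-box, starting at base 215, and the window of exon 1a held 0. Both windows of *Slc12a7*, which overlap, held the same single E-box, the window of *Slc12a9* held 1, and that of *Slc12a4* held 0. No window of *Slc12a2* was available to search. Over 32851 promoters of the same length, 7.15% held an E-box. The EGR motif GCGNGGGCG, searched on both strands, was in 0 of these windows and in 5.55% of all promoters. The GC content of the windows was 63.0% to 69.3%, against a median of 52.7% over all promoters. These matches describe the letters only.

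Of the 32 transcripts of the 5 genes, 16 had enough counts to be tested, and edgeR called 0 of them, as it did 0% of 54721 transcripts. At an unadjusted p under 0.05 there was 1 of 16, against 7.41% of all transcripts. Of the 16, 1 was higher in each *Slc13a4*+/- mouse than in any wild-type mouse (8.87% of all transcripts), and 1 was lower in each (7.28%). The higher one was Slc12a5-204, annotated as a retained intron, with 73.7, 107 and 91.5 estimated counts in the *Slc13a4*+/- mice and 49.2, 48.6 and 48.5 in the wild-type mice. edgeR gave it a log2 fold change of 0.74 (SE 0.25; adjusted p 0.665), and it was singled out after its values were seen. The other retained-intron transcript of the gene, Slc12a5-205, had 183 counts in Nas2Del_Het_1025 and 47.7 to 81.6 in the other 5 mice.

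Retained-intron transcripts together held 0.311%, 0.746% and 0.421% of the *Slc12a5* counts in the *Slc13a4*+/- mice and 0.286%, 0.307% and 0.226% in the wild-type mice, without overlap (exact permutation p = 0.1, the smallest possible). Over all genes, such transcripts held 2.21% ± 0.22 (SD, n = 3) of the counts in *Slc13a4*+/- and 1.90% ± 0.11 (SD, n = 3) in wild-type mice (exact permutation p = 0.1). Of 12142 retained-intron transcripts tested, 20.4% were higher in all *Slc13a4*+/- mice than in any wild-type mouse. Whether this shift of the whole library has a part in the *Slc12a5* values was not tested.

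The lower one was Slc12a2-201, the only coding transcript listed for *Slc12a2*, which held 99.5% to 99.8% of its counts. It was at 164.8, 164.5 and 150.9 CPM in the *Slc13a4*+/- mice and at 170.4, 171.5 and 167.5 CPM in the wild-type mice, with a log2 fold change of -0.09 (SE 0.05, adjusted p 0.681 in edgeR). Transcript CPM had a TMM scaling separate from that of gene CPM. At the gene level, with nearly the same counts, the genotypes overlapped (152.5 to 169.7 against 165.5 to 171.2 CPM). This transcript includes exon 21 of 48 bases, which NKCC1 is known to skip in an alternative form. Inclusion of the exon was not analysed here. NKCC1 is known to be abundant in the choroid plexus epithelium and in astrocytes as well as in neurons. The 6 choroid plexus markers summed to 388 to 451 CPM in *Slc13a4*+/- and 469 to 476 CPM in wild-type mice, and 6 of 6 had a log2 fold change below 0. Most of this sum was *Ttr*, at 353 to 412 against 430 to 437 CPM. *Kcnj13* and *Aqp1* were also lower without overlap, whereas *Folr1*, *Clic6* and *Kl* overlapped. Astrocyte markers summed to 1201 to 1250 CPM against 1279 to 1292 CPM, microglial markers to 248 to 256 against 265 to 269, and endothelial markers to 168 to 180 against 185 to 196. Within the astrocyte list *Aldh1l1* went the other way, at 69.1 to 73.5 CPM against 64.7 to 69.06 CPM. Of that list only *Gfap* was lower without overlap, and *Aqp4*, *Slc1a3* and *Gja1* overlapped. Within the endothelial list *Slco1a4* had the higher mean in *Slc13a4*+/- mice (51.9 against 49.3 CPM), with overlap, and *Ly6c1* overlapped too. *Cldn5*, *Pecam1* and *Flt1* were lower without overlap. Within the microglial list *Cx3cr1* and *C1qa* were lower without overlap, whereas *Csf1r*, *P2ry12* and *Tmem119* overlapped. The genotypes overlapped in the summed markers of the oligodendrocyte lineage (7491 to 8719 against 8496 to 9465 CPM), ependymal cells (15.2 to 18.1 against 17.9 to 19.9 CPM) and meningeal fibroblasts (143 to 155 against 143 to 153 CPM). Among the single markers of these sums, *Mbp*, *Mog* and *Rarres2* were lower without overlap. *Col1a2* was higher without overlap, and the others overlapped. Of the markers in these 7 lists, 0 were at 0 in all mice, and edgeR called 0, against 0.00585% of all genes. An unadjusted p under 0.05 in edgeR was found for 9.15% of all genes. It was found for 3 of 6 choroid plexus, 2 of 5 astrocyte, 2 of 5 microglial and 3 of 5 endothelial markers. In the other lists it was found for 2 of 6 oligodendrocyte lineage, 1 of 4 ependymal and 1 of 5 meningeal markers. The part of these markers in the *Slc12a2* values was not tested.

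*Slc12a4* has coding transcripts that differ in the end of the first coding exon, which on the minus strand of chromosome 8 is longer by 6 bases in Slc12a4-201. Their first exons also start at different bases, 105966097 in Slc12a4-201 and 105966044 in Slc12a4-202, so the shares below do not measure this junction alone. The junction is shown with 18 bases on either side and the added bases in capitals, because reads that cross it help to divide the gene between both forms.
Slc12a4-201, exon chr8:105965919-105966039: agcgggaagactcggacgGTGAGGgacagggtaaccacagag
Slc12a4-202, exon chr8:105965925-105966039: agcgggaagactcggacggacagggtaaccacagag

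Slc12a4-201 took 16.9%, 23.3% and 28.8% of the *Slc12a4* counts in the *Slc13a4*+/- mice and 36.5%, 28.2% and 23.1% in the wild-type mice. The shares varied as much within a genotype as between the genotypes (exact permutation p = 0.5). Slc12a4-202 held most of the rest, and its log2 fold change was 0.05 (SE 0.10), against -0.42 (SE 0.25) for Slc12a4-201.

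*Slc12a9* was carried by Slc12a9-201, with 98.1% to 99.0% of its counts and a log2 fold change of 0.01 (SE 0.05). In TPM the share of this transcript was 91.3% to 95.3% in *Slc13a4*+/- and 95.9% to 97.6% in wild-type mice, which did not overlap. The short transcripts Slc12a9-202 and Slc12a9-204, of 637 and 365 bases, had 1.53 to 6.64 counts in *Slc13a4*+/- and 0 to 1.62 counts in wild-type mice. The gene-level TPM of *Slc12a9* was the only one among the 5 cotransporters whose genotypes did not overlap. The share of all genes without overlap was counted in CPM only. TPM gives a short transcript more weight per count, and whether that has a part here was not tested.

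*Slc12a7* varied most between mice, with a coefficient of variation of 22.7% in TPM against 3.40% to 5.46% for the other genes. Slc12a7-201 held 92.9% of its counts in Nas2Del_WT_1016 and 78.5% in Nas2Del_WT_1026, and the *Slc13a4*+/- mice lay between them. The transcripts Slc12a7-207 and Slc12a7-202 held up to 8.25% and 8.05%. Of these only Slc12a7-201 (log2 fold change -0.03, SE 0.14) and Slc12a7-202 (0.09, SE 0.78) had enough counts to be tested.

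**Figure D4:**
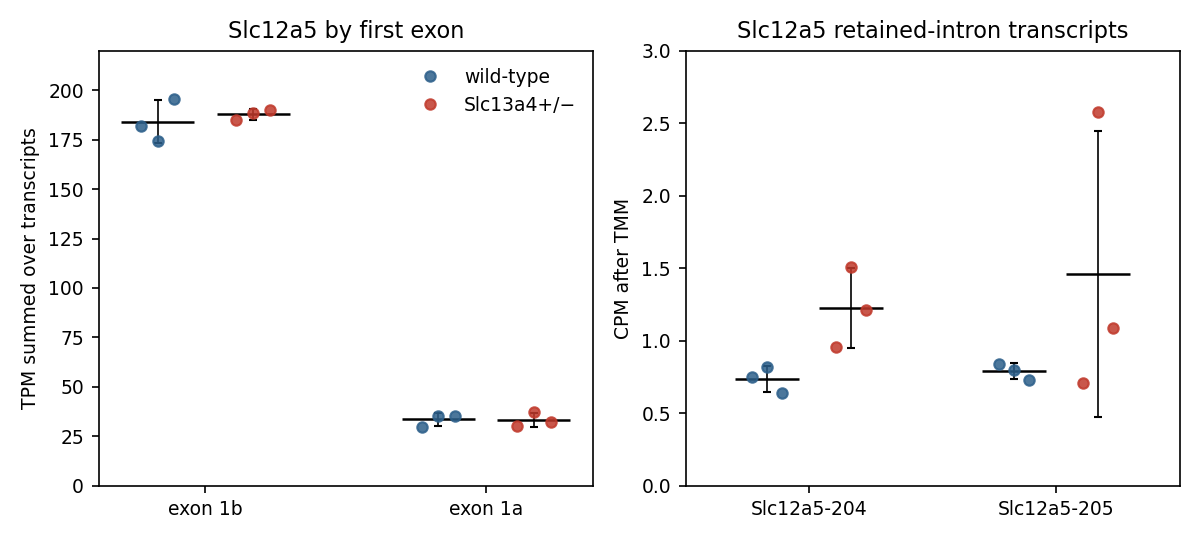
Left, TPM of the *Slc12a5* transcripts that begin with exon 1b or exon 1a (y axis) by mouse; right, CPM (y axis) of its retained-intron transcripts Slc12a5-204 and Slc12a5-205. Each point is a mouse, with the group's mean as a bar and the SD of 3 mice as the error bar; the genotypes overlap on the left, and Slc12a5-204 is higher in each *Slc13a4*+/- mouse than in any wild-type mouse.

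The regulators and partners of these transporters were tested as lists of 47 genes, all of which had enough counts. Of the 47, edgeR called 0 and DESeq2 called 0, and at an unadjusted p under 0.05 in edgeR 2 were higher and 3 lower, against 9.15% of all genes in either direction. The median log2 fold change over the 47 genes was -0.02. WNK kinases and their targets SPAK (*Stk39*) and OSR1 phosphorylate the transporters, which activates NKCC1 and inhibits the KCCs. Of the 13 genes of this pathway 3 lay above 0 and 10 below, with log2 fold changes from -0.10 to 0.02. *Stk39* was at -0.05 (SE 0.04), *Cab39l*, a scaffold that raises SPAK activity, at -0.10 (SE 0.05) and *Sgk1*, a kinase that acts on this pathway, at -0.06 (SE 0.07). *Klhl2*, an adaptor for the breakdown of WNK kinases and the most abundant of the list at 169 TPM, had a log2 fold change of 0.0078.

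Among 7 genes whose proteins bind or act with KCC2, the log2 fold changes ran from -0.06 to 0.07, with 0 at an unadjusted p under 0.05. *Grik2*, a kainate receptor subunit, was at 88.8 to 94.6 CPM in *Slc13a4*+/- and 85.3 to 88.3 CPM in wild-type mice, with a log2 fold change of 0.07 (SE 0.04). *Ckb*, the brain creatine kinase, lay at -0.06 (SE 0.05) on the log2 scale, and *Epb41l1*, the neuronal 4.1N protein that ties KCC2 to the cytoskeleton, at -0.02 (SE 0.04).

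The 7 genes known to act on *Slc12a5* transcription all had a log2 fold change below 0 in edgeR with all 6 mice, with a median of -0.06. In DESeq2 *Usf2* was at 0.0033. In edgeR 2 of the 7 were lower at an unadjusted p under 0.05, against 9.15% of all genes in either direction. *Bdnf*, a neurotrophin that acts through *Ntrk2*, was at 42.7, 44.5 and 43.3 CPM in the *Slc13a4*+/- mice and at 49.4, 49.5 and 44.0 CPM in the wild-type mice. The groups overlapped only through Nas2Del_WT_1026, and edgeR put the log2 fold change at -0.13 (SE 0.05, adjusted p 0.526). *Usf1*, an E-box factor, was at 52.6, 49.3 and 52.1 CPM against 58.4, 57.1 and 52.2 CPM, also overlapping only through Nas2Del_WT_1026, with a log2 fold change of -0.12 (SE 0.05, adjusted p 0.539 in edgeR). *Rest*, a repressor of neuronal genes, was at -0.12 (SE 0.07) and *Ntrk2* at -0.01 (SE 0.04). Without Nas2Del_Het_1024 or Nas2Del_Het_1027, *Ntrk2* turned above 0, at 0.0081 and 0.0017.

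The sodium pump supplies the gradients on which the cotransporters run. Of its 9 subunit genes 2 lay above 0 and 7 below, with *Atp1b1* at -0.04 (SE 0.03) and *Fxyd1* at -0.14 (SE 0.09). Of 11 other genes of chloride and bicarbonate handling, 3 had an unadjusted p under 0.05 in edgeR, against 9.15% of all genes. *Slc4a7*, a sodium bicarbonate cotransporter, was at 43.4, 43.1 and 44.1 CPM in the *Slc13a4*+/- mice and at 35.6, 36.8 and 40.2 CPM in the wild-type mice. Its values did not overlap, and edgeR put the log2 fold change at 0.21 (SE 0.05, adjusted p 0.499). The edgeR fit without retained-intron and decay transcripts gave no value for *Slc4a7*. Which of its transcripts held the counts was not analysed. *Clcn2*, a chloride channel, was at 37.0 to 39.3 CPM against 34.3 to 36.0 CPM (0.12, SE 0.04). With length offsets its log2 fold change was 0.0639 in edgeR and 0.0621 in DESeq2, and without retained-intron and decay transcripts 0.0753, none of them at an unadjusted p under 0.05. *Car2*, a carbonic anhydrase, was at 97.1 to 107.5 CPM against 108.4 to 119.5 CPM (-0.16, SE 0.05), while *Slc4a10* was at 0.04 (SE 0.04). Without Nas2Del_WT_1026, edgeR called *Slc4a7* (log2 fold change 0.27, adjusted p 0.059) and *Bdnf* (-0.18, adjusted p 0.092), and none of the 5 cotransporters. In that fit 223 of 17337 genes were called.

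Over the 6 mice, the genes whose log2 CPM followed each transporter most closely were found among 10211 genes, with no test. For *Slc12a5* they were *Actn1*, *Rptor* and *Ipo13* (Pearson r 0.992 to 0.996), and for *Slc12a2* *mt-Nd6*, *Megf10* and *Pde8a* (0.967 to 0.987). For *Slc12a4* they were *Uba1*, *Dner* and *Nptx1* (0.985 to 0.996), for *Slc12a7* *Kndc1*, *Megf11* and *Adam9* (0.958 to 0.972), and for *Slc12a9* *Zbtb38*, *Zkscan8* and *Pank3* (0.994 to 0.998). The transporters themselves spanned only 0.10 (*Slc12a4*) to 0.33 (*Slc12a7*) on the log2 scale, and all points share the libraries, so these values rank small deviations.

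Leaving out each mouse in turn moved the log2 fold changes of the cotransporters by amounts close to their standard errors. In edgeR *Slc12a5* ran from -0.05 without Nas2Del_WT_1018 to 0.04 without Nas2Del_WT_1026, so its direction changed with the mouse left out. *Slc12a2* stayed below 0 in each of the 6 edgeR fits and *Slc12a9* above 0. No cotransporter was called in any of them.

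**Figure D5:**
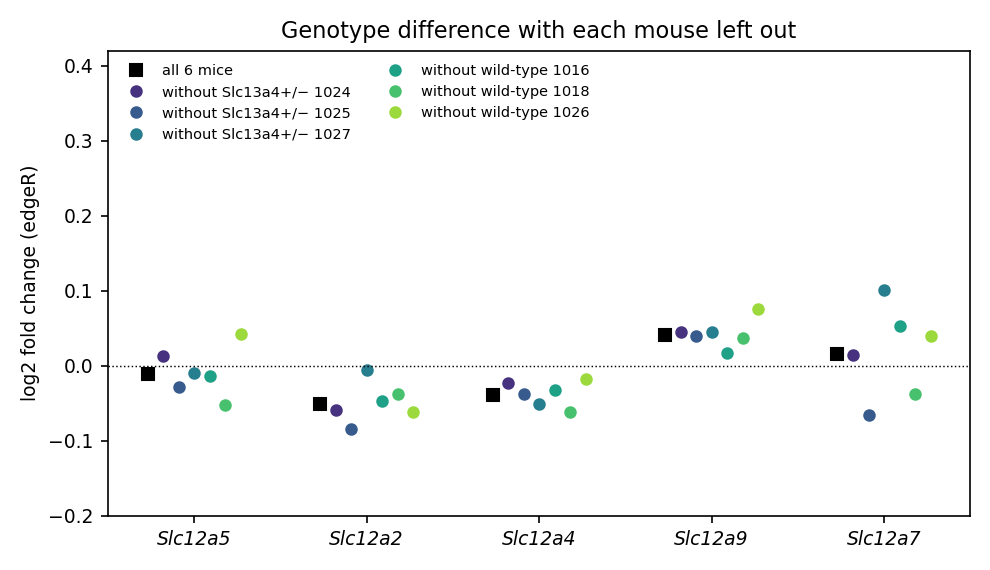
Log2 fold change in edgeR (y axis) of the 5 cotransporters (x axis) with all 6 mice (squares) and with each mouse left out (circles). *Slc12a5* and *Slc12a7* have points on both sides of 0, and *Slc12a2* and *Slc12a4* have none above it.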

How the data were processed

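Stranded, rRNA-depleted, paired-end libraries were made from whole P20 forebrain, 3 mice per genotype. The authors quantified transcripts with Salmon (v1.2.0) with GC bias correction. As estimated counts the authors deposited Salmon's number of reads per transcript, with fractions where reads were divided. The deposited TPM is scaled by transcript length. No source used here gives the transcript set of the index.

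Of 117135 transcripts, 115973 were matched by identifier to GENCODE M21 (GRCm38). The other 1162, with 0.620% to 0.645% of the counts, were left out. Counts were summed per gene and rounded. Genotypes were compared in R 4.3.3 with edgeR 4.0.16 (quasi-likelihood, TMM, default count filter). Genes or transcripts were called at a Benjamini-Hochberg adjusted p under 0.1. DESeq2 1.42.0 (Wald test), with average transcript lengths formed from the deposited effective lengths, was the alternative. The authors used DESeq2, and the length offsets are inferred from their tximeta import. Ratios and shares were compared by two-sided exact permutation tests. The edgeR and DESeq2 fits were tested on simulated data. No library was a copy of another. The alternatives were other tools, normalizations, filters and transcript sets, and leaving out each mouse. Python 3.11.15 joined the files.

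The 5 genes, the lists and the tests were chosen with earlier results of these data known. Named were SLC12 genes and, of each list, up to 3 genes with the smallest p and the most abundant gene. A few items chosen this way are left out of the report. Also named were the 3 genes most correlated with each cotransporter (mean CPM of at least 10), and transcripts of the 5 genes with at least 5% of the counts in any mouse. The first-exon, short-exon and retained-intron groupings were chosen after seeing the values.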

Additional observations from a re-analysis of the deposited data

How the results depend on the processing

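No cotransporter gene was called under any of the 20 alternatives tried for each, and the *Slc12a5* to *Slc12a2* ratio kept its direction under all of its own, with a log2 difference of 0.03 to 0.12. *Slc12a2* stayed below 0 and *Slc12a9* above 0 under all 20. The number of all genes called was 1 in edgeR, 0 with length offsets, 147 with no filter, 55 in DESeq2 without length offsets and 88 with them. Leaving out each mouse gave 1 to 223 genes in edgeR and 34 to 706 in DESeq2 (both highest without Nas2Del_WT_1026, the lowest DESeq2 count without Nas2Del_WT_1016), and 0 to 6 transcripts (6 without Nas2Del_WT_1016). The cause was not tested.

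Of the log2 fold changes near 0, *Slc12a5* turned to 0.0095 with DESeq2 and length offsets, 0.0112 with edgeR and length offsets and 0.0009 with total counts. *Slc12a3* turned to 0.39 with DESeq2 and 0.387 with edgeR when length offsets were used. Without retained-intron and decay transcripts *Slc12a7* was at -0.0069. Slc12a9-201 was at -0.0051 with the size factors of DESeq2. With each mouse left out, the range was -0.0812 to 0.0013 for *Slc12a4*, -0.0523 to 0.048 for *Slc12a5*, -0.13 to 0.27 for *Slc12a7* and -0.41 to 0.47 for *Slc12a3*. It was -0.0508 to 0.0205 for *Epb41l1*, -0.0477 to 0.0081 for *Ntrk2* and -0.13 to 0.0245 for *Sgk1*. Among transcripts it was -0.0117 to 0.36 for Slc12a5-207, -0.12 to 0.0041 for Slc12a5-201, -0.0783 to 0.0647 for Slc12a7-201, -0.38 to 0.25 for Slc12a7-202, -0.0177 to 0.0382 for Slc12a9-201 and -0.0186 to 0.14 for Slc12a4-202. The difference in the share of the main transcript ran from -1.51 to 0.234 percentage points for *Slc12a5*, from -4.81 to 2.41 for *Slc12a7* and from -0.326 to 0.0922 for *Slc12a9*. The cause was not tested.

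In DESeq2 without Nas2Del_WT_1026, *Slc4a7* (adjusted p 0.0045), *Car2* (0.012), *Bdnf* (0.031) and *Usf1* (0.072) were called, as were 706 of 11331 genes in all. *Slc4a7* was also called by edgeR with no filter and all 6 mice (adjusted p 0.056), where 147 of 28648 genes were called. *Car2* was also called by DESeq2 without Nas2Del_Het_1024 (0.066), where 97 of 13317 genes were called. Over all alternatives the adjusted p of the genes named here reached 1.0. The count of *Slc12a7*, the lowest of the cotransporters, limits its precision, and the division of reads between transcripts is a model estimate without an error of its own. No paired analysis was possible because no source used here gives the litter of a mouse, and the replicate numbers each name a single mouse.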
